A study of Homo sapiens with 9 samples.

Results

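The regions described here are stretches of accessible chromatin that were listed as peaks in HEK293T cells lacking IGF2BP2 and in HEK293T cells lacking IGF2BP3, and in neither of the other groups of the study. The peaks of the 4 deposited lists were pooled, peaks sharing at least 1 bp were merged, and a merged region was kept where it overlapped a peak of both of these knockout lists and no peak of the IGF2BP1 knockout or control list. This left 2507 of 71597 regions, or 3.5% of them. The members were thus chosen by the presence and absence of peaks in these 4 lists, so their presence, and the peak widths taken from the same calls, are given as a description without a test.

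HEK293T is an established human embryonic kidney line that carries the SV40 large T antigen. The 4 groups were profiled by ATAC-seq with Omni-ATAC lysis and transposition, all without any treatment, and the labels give 9 libraries. The control was labelled wild type and carried a non-targeting CRISPR/Cas9 guide, and batches 2 and 3 gave 1 library each. For the IGF2BP2 and the IGF2BP3 knockout the same batches gave 1 library each, and for the IGF2BP1 knockout batches 1, 2 and 3 did. Each knockout came from a non-integrating plasmid with 3 guides and GFP, and a single clone grown from a sorted cell was used for each gene, which means that effects of the clone and of the lost gene cannot be told apart. Each group had 1 peak list, which gives positions only. There is therefore no spread between replicates and no test between groups, the depth behind each list is unknown, and the intervals below are 95% Wilson intervals that cover counting error over regions only. Whether a missing peak reflects fewer cells with an open site or less opening per cell cannot be told apart in pooled cells.

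In ATAC-seq the Tn5 transposase cuts accessible DNA, so a peak marks an open promoter, enhancer, insulator or other site with few nucleosomes. Promoters of widely used genes are open in most cell types, whereas open sites far from promoters vary more between cell types. The IGF2BP proteins (IMP1 to IMP3) are RNA-binding proteins that act mainly on mRNA stability, transport and translation. IGF2BP1 and IGF2BP3 are known as oncofetal proteins, and IGF2BP2 is also made in many adult tissues.

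Most members lay away from promoters, but 60 of them covered 66 annotated start sites of the RefSeq promoter table. The 5 promoters below lie whole inside a member and were chosen after their values were seen. They show an interferon-stimulated gene, a transporter, a signalling protein, a homeobox factor and a channel subunit. The SMAD3 window belongs to an annotated start inside the gene, and its member lay more than 1 kb from either gene end. Each runs from 250 bases before to 50 bases after the start site on the plus strand of GRCh38.p14 (RefSeq), and capitals mark the motif matches named after the sequences.
ISG15: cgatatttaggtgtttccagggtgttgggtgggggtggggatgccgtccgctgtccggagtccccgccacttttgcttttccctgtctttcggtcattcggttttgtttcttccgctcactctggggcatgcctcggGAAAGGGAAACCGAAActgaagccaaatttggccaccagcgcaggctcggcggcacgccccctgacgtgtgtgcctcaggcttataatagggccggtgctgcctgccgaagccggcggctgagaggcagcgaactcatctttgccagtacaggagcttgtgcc
SLC6A14: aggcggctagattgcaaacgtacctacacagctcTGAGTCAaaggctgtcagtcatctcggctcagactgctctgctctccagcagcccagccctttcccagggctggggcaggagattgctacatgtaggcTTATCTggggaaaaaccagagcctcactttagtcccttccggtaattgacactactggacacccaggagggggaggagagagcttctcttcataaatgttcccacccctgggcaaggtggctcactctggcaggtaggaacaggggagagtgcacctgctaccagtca
SMAD3: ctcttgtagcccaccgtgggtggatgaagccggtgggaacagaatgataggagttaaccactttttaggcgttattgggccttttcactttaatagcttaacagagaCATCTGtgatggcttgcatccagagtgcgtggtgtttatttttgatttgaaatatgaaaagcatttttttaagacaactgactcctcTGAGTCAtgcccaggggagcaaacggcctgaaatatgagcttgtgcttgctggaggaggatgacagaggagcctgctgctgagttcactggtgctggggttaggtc
HMX2: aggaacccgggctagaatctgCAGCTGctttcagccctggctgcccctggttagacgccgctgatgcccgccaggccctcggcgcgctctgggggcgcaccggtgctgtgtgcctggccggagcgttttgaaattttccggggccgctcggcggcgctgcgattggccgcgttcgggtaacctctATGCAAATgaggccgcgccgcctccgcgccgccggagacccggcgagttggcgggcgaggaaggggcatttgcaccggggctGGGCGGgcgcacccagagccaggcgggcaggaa
CACNG6: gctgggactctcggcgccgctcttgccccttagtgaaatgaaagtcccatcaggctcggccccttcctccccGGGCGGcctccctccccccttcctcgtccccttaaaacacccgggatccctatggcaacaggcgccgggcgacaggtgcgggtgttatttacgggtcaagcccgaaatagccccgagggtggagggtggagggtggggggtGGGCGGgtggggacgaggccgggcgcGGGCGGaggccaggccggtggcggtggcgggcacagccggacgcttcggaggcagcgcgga
These windows are chr1:1013247-1013546 for ISG15, chrX:116436356-116436655 for SLC6A14, chr15:67125492-67125791 for SMAD3, chr10:123147886-123148185 for HMX2 and chr19:53991387-53991686 for CACNG6. In the ISG15 promoter the capitals are 2 overlapping matches to the interferon-stimulated response element, searched as a pair of GAAA runs with 2 bases between them on either strand, at bases -113 to -104 and -107 to -98 from the start site. In SLC6A14 they are an AP-1 match (TGANTCA) at -216 to -210 and a GATA match (AGATAA, on the other strand) at -118 to -113. In SMAD3 they are an E-box CATCTG at -143 to -138 and an AP-1 match at -56 to -50. In HMX2 they are an E-box CAGCTG at -229 to -224, an octamer (ATGCAAAT) at -65 to -58 and a GC box (GGGCGG) at 18 to 23. CACNG6 holds 3 GC boxes, the nearest at -11 to -6. A match shows only that these letters are present.

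Of the 1562 miRNA hairpins of the RefSeq table, 1 overlapped a member. It was MIR129-2, whose hairpin at chr11:43581394-43581483 (plus strand) lay in a member with a 447 bp peak in the IGF2BP2 knockout list and a 465 bp peak in the IGF2BP3 knockout list. The IGF2BP3 knockout peak ended at 43581438, inside the hairpin, and did not reach hsa-miR-129-2-3p at 43581450-43581471. The same member overlapped HSD17B12 and covered the start of LOC124902807. The nearest control peak was 0.999 kb away and the nearest IGF2BP1 knockout peak 1.01 kb away. miR-129 is known as a brain-enriched miRNA. Its mature strands are shown with the seed, bases 2 to 8, in capitals, and the seeds of the 2 strands differ.
hsa-miR-129-5p: cUUUUUGCggucugggcuugc
hsa-miR-129-2-3p: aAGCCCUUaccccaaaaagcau

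The class stood among much larger sets of regions that a knockout list held and the control list lacked. The IGF2BP2 knockout list held peaks absent from the control list in 23995 regions, 33.5% of all regions, and the IGF2BP3 knockout list did so in 11887, or 16.6%. The control list held 39194 peaks, the IGF2BP1 knockout list 50917, the IGF2BP2 knockout list 60262 and the IGF2BP3 knockout list 44041. Among regions held by exactly a pair of knockout lists, 5666 were in the IGF2BP1 and IGF2BP2 lists, 2507 in the IGF2BP2 and IGF2BP3 lists and 949 in the IGF2BP1 and IGF2BP3 lists. The IGF2BP2 knockout alone held 10897 regions and the IGF2BP3 knockout alone 3506. A further 4925 regions had peaks in every knockout list but the control list lacked them. With each list shortened to its 39194 widest peaks, the members numbered 1449, and 1059 of the original 2507 were among them.

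Of the 13404 regions that the IGF2BP2 knockout list held and the control and IGF2BP1 knockout lists lacked, 18.7% (18.1 to 19.4%) were also in the IGF2BP3 knockout list. Seen from the other list, 41.7% (40.5 to 42.9%) of 6013 such IGF2BP3 knockout regions were shared. The shared part was larger among wider peaks in both lists. In 4 bins of like size, from the narrowest to the widest peaks, it was 12%, 16.3%, 19.3% and 27.2% of the IGF2BP2 knockout regions. The same binning gave 35.7%, 38.9%, 44.3% and 47.8% of the IGF2BP3 knockout regions.

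**Figure D1:**
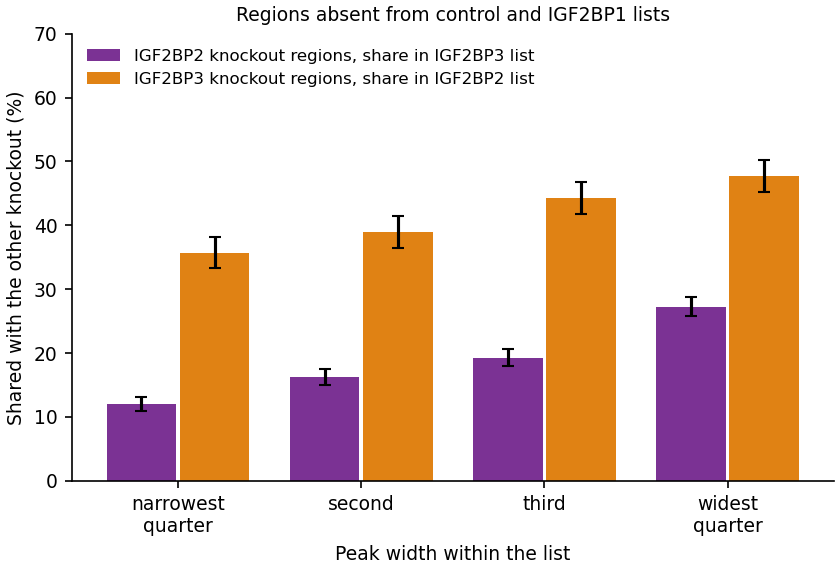
Regions absent from the control and IGF2BP1 knockout lists, in 4 bins of peak width within each list (x axis), and the percentage also held by the other knockout list (y axis). Bars are percentages and whiskers 95% Wilson intervals over regions; the share is lowest in the narrowest bin (12% and 35.7%) and highest in the widest (27.2% and 47.8%).

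The 2 peaks of a member lay closely on top of each other, although the rule asked for only 1 shared base. The median overlap was 430 bp, or 99.8% of the narrower peak, and in 1241 members (49.5%) the narrower peak lay wholly inside the wider one. In 2477 members (98.8%) at least 50% of the narrower peak was shared. The centres were a median of 63.5 bp apart (quartiles 28.0 and 118 bp), and in 1706 members (68.0%) they were within 100 bp. In 2498 members each list contributed 1 peak, and in 9 a list contributed more. Such overlap was not particular to members. In the IGF2BP1 and IGF2BP2 pair and the IGF2BP1 and IGF2BP3 pair, 99.7% of regions each shared at least 50%. The centres there were a median of 61.5 and 64.0 bp apart. The narrower peak lay wholly inside the wider one more often than in members, in 60.7% and 59.5%.

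The peaks were narrow for their lists. The median width was 534 bp in the IGF2BP2 knockout list (quartiles 422 and 682 bp), against 651 bp for that whole list. In the IGF2BP3 knockout list it was 527 bp (quartiles 412 and 677 bp), against 713 bp. Narrow peaks were not particular to members. In the IGF2BP1 and IGF2BP2 pair the IGF2BP2 knockout peaks had a median of 518 bp. In the IGF2BP1 and IGF2BP3 pair the IGF2BP3 knockout peaks had a median of 520 bp. In 1544 members (61.6%) both peaks were below their list's median and in 290 (11.6%) both were at or above it. Neither list had the wider peak as a rule: the IGF2BP2 knockout peak was wider in 1303 members (52.0%). Across members the 2 widths had a Spearman's rho of 0.42, a description over regions that share their libraries. In the pairs with the IGF2BP1 knockout, that list held the wider peak in 74.4% (with IGF2BP2) and 74.6% (with IGF2BP3) of regions.

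**Figure D2:**
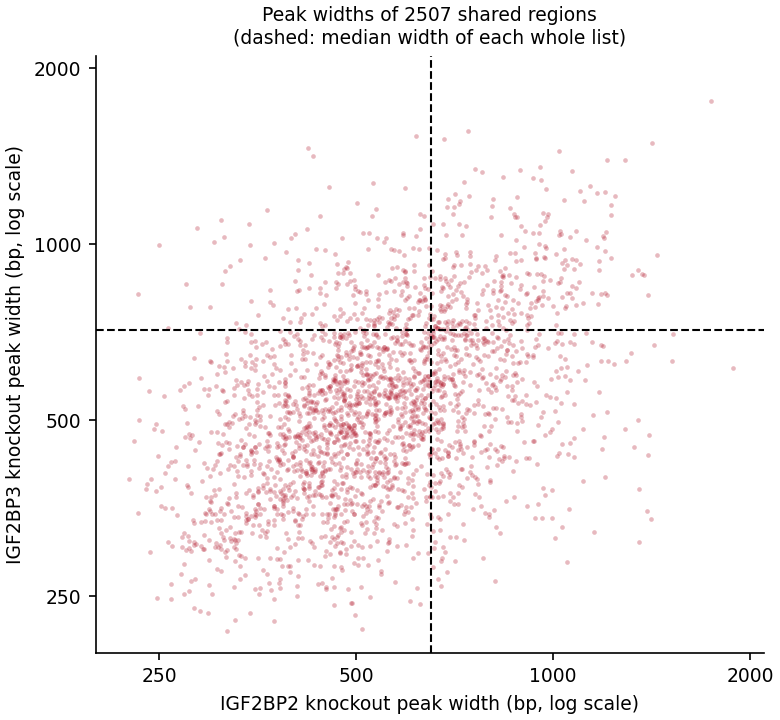
Width of the IGF2BP2 knockout peak (x axis, bp, log scale) against the IGF2BP3 knockout peak (y axis, bp, log scale), 1 point per member; dashed lines are the medians of the whole lists, 651 and 713 bp. Most points lie in the lower left, where 61.6% of members have both peaks below the medians.

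At the edge of the rule, the smallest overlaps were 5 bp in CACNA1D on chromosome 3, a calcium channel gene, 30 bp in DCBLD1 on chromosome 6 and 63 bp in LOC101928135 on chromosome 3. Just outside it, an IGF2BP2 knockout peak and an IGF2BP3 knockout peak were 1 bp apart in OSBPL9 on chromosome 1, 7 bp apart in IRAG1 on chromosome 11 and 24 bp apart near NCOA5LP on chromosome 16. Such near misses were few, since 21 regions of the IGF2BP2 knockout alone lay within 500 bp of a region of the IGF2BP3 knockout alone.

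Members mostly stood apart from the peaks of the lists that lack them. The nearest control peak was a median of 27.3 kb away (quartiles 10.3 and 68.3 kb) and the nearest IGF2BP1 knockout peak 18.2 kb away (7.41 and 42.5 kb). Only 56 members had a control peak within 1 kb and 69 an IGF2BP1 knockout peak, and 2424 (96.7%) were at least 1 kb from both. The other pairs stood apart too. In the IGF2BP1 and IGF2BP2 pair the median gaps were 25.4 kb to a control peak and 22.5 kb to an IGF2BP3 knockout peak. In the IGF2BP1 and IGF2BP3 pair they were 22.8 kb to a control peak and 14.9 kb to an IGF2BP2 knockout peak. For members, the nearest region of any class was a median of 11.5 kb away. It was a region of all 4 lists for 830 members (33.1%, while such regions make up 41.5% of all regions) and a region of the IGF2BP2 knockout alone for 505 (20.2%, against 15.2%).

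Members were mostly distal. Of the 2507, 258 (10.3%, 9.16 to 11.5%) lay within 1 kb of either end of a gene, compared with 27.0% of all regions and 48.3% of regions in all 4 lists. The share was 25.6% within 5 kb of a gene end, and 15.9% within 1 kb when every peak was trimmed to 200 bp. An annotated coding start site was within 1 kb of 58 of 2375 members on chromosomes with such sites (2.44%, 1.89 to 3.14%), compared with 35.4% of regions in all 4 lists. The share was 3.07% (2.64 to 3.56%) for the IGF2BP1 and IGF2BP2 pair, 4.60% (3.42 to 6.15%) for the IGF2BP1 and IGF2BP3 pair and 1.83% (1.59 to 2.11%) for the IGF2BP2 knockout alone. The interval of the members overlaps those of the first and last of these and not that of the IGF2BP1 and IGF2BP3 pair. A gene body was overlapped by 1384 members (55.2%, 53.3 to 57.1%), and a protein-coding one by 978 (39.0%). Over all regions these shares were higher, 68.2% and 54.3%. They were 62.9% and 47.2% for the IGF2BP1 and IGF2BP2 pair and 61.0% and 47.1% for the IGF2BP1 and IGF2BP3 pair. For the IGF2BP2 knockout alone they were 58.1% and 42.2%. A further 364 members (14.5%) overlapped a lncRNA gene and no coding gene, 42 another kind of gene, and 1123 (44.8%) no gene. The table gives gene bounds only, so exons, introns and UTRs were not told apart. The start sites used do not cover every coding gene, so the shares at coding starts can be too low.

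The share of members far from protein-coding genes was above that of the other pairs. Of 2482 members with a coding gene on their sequence, 783 (31.5%, 29.7 to 33.4%) were more than 100 kb from any protein-coding gene. This share was 17.1% for all regions and 9.06% for all 4 lists. It was 21.0% (19.9 to 22%) for the IGF2BP1 and IGF2BP2 pair and 17.9% (15.6 to 20.5%) for the IGF2BP1 and IGF2BP3 pair. The IGF2BP2 knockout alone had 29.1% (28.2 to 30.0%) and the IGF2BP3 knockout alone 26.3% (24.9 to 27.8%). The interval of the members overlaps that of the IGF2BP2 knockout alone. The median distance to a coding start site was 99.7 kb for members, 69.2 kb and 74.8 kb for the other pairs and 17 kb for all 4 lists. These distances can be too long, because some coding genes had no start site among those used. Members in repeat sequence, such as that around centromeres, were not set apart in these shares and distances.

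**Figure D3:**
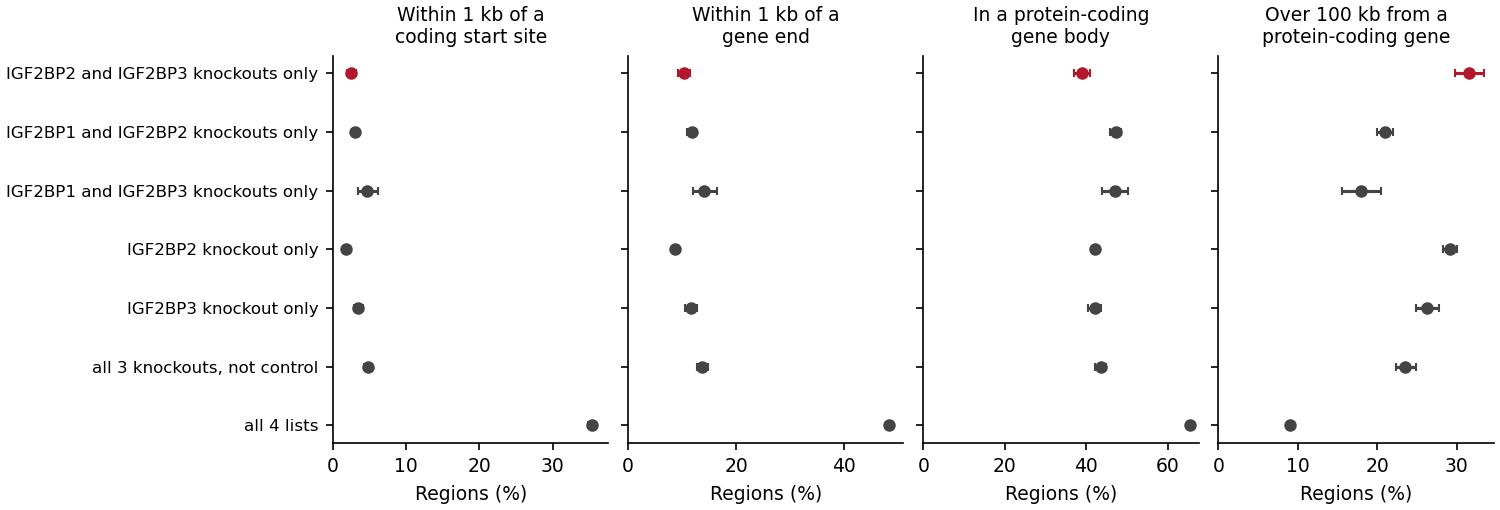
Percentage of regions (x axes) within 1 kb of a coding start site, within 1 kb of a gene end, in a protein-coding gene body and over 100 kb from a protein-coding gene, by class of region (rows; members in red), with 95% Wilson intervals. At coding starts members (2.44%) lie far below all 4 lists (35.4%), and of the classes shown they have the highest share far from genes, 31.5%. The interval of that share (29.7 to 33.4%) overlaps that of the IGF2BP2 knockout alone (28.2 to 30.0%).

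**Figure D4:**
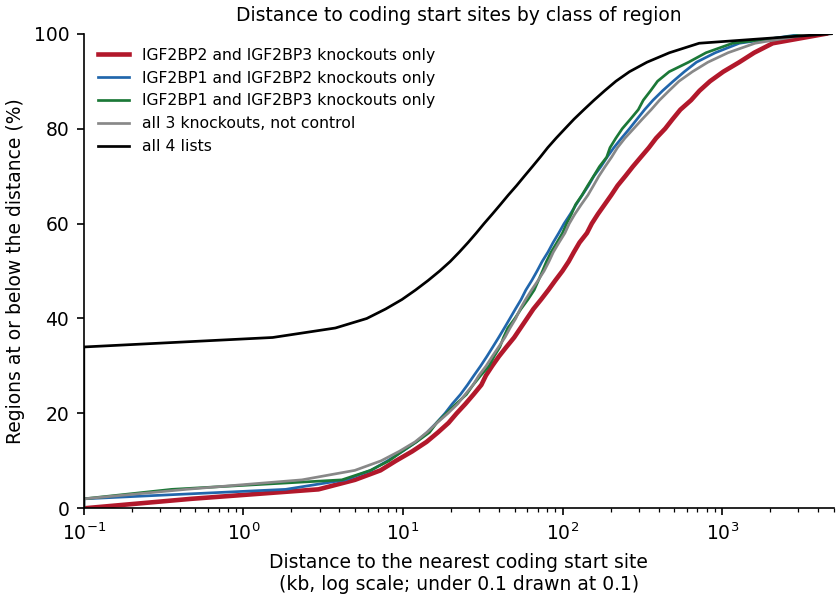
Cumulative percentage of regions (y axis) at or below each distance to the nearest coding start site among those used (x axis, kb, log scale), by class. The curve of the members runs to the right of the other classes, with a median of 99.7 kb against 17 kb for regions in all 4 lists.

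Chromosome 13 held the densest group of members. A stretch from 60 to 95 Mb of this chromosome, a part of the genome known to be poor in genes, was chosen with earlier results of these data known. It held 222 members, 8.86% of them (7.81 to 10.0%), compared with 2.71% of all regions and 1.07% of regions in all 4 lists. The share was 7.67% for the IGF2BP3 knockout alone, 6.78% for all 3 knockouts without control, 4.85% for the IGF2BP1 and IGF2BP3 pair, 4.09% for the IGF2BP2 knockout alone and 2.65% for the IGF2BP1 and IGF2BP2 pair. A share above that of all regions was therefore found in other classes absent from the control too. The rest of chromosome 13 held 1.6% of the members and 1.68% of all regions.

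Within the stretch, 30 of 222 members (13.5%) lay in a coding gene body, 8 within 1 kb of a gene end and 0 within 1 kb of a coding start. Their median widths, 537 bp in the IGF2BP2 and 558.5 bp in the IGF2BP3 knockout list, were close to the 534 and 523 bp outside it. The IGF2BP2 and IGF2BP3 knockouts also shared more there: 33.2% (29.8 to 36.9%) of the 668 IGF2BP2 knockout regions absent from the control and IGF2BP1 knockout lists were members, against 18.7% genome-wide. For the IGF2BP3 knockout the share was 45.2% (40.9 to 49.6%), against 41.7%, and these intervals overlap.

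The 5 densest windows of 1 Mb all lay in this stretch. The window from 65 to 66 Mb held 19 members among 87 regions, with 16 regions holding a control peak and no coding gene with a member. The windows from 62 to 63 Mb and from 63 to 64 Mb held 14 members each. The window from 67 to 68 Mb, which reaches into PCDH9, a protocadherin gene for adhesion between neurons, held 13, and that from 68 to 69 Mb held 11. In the last of these only 5 of 60 regions held a control peak. Of the 51 windows with 5 or more members in the genome, 20 lay in this stretch and 6 on chromosome X, while 832 of 1413 windows with a member held 1.

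A second group was seen on the X chromosome after the values were known. From 110 to 130 Mb of X lay 67 members (2.67%, 2.11 to 3.38%), compared with 0.758% of all regions, 0.536% of regions in all 4 lists, 0.265% of the IGF2BP1 and IGF2BP2 pair and 0.527% of the IGF2BP1 and IGF2BP3 pair. The IGF2BP2 knockout alone had 1.44% and the IGF2BP3 knockout alone 1.65% of its regions there. Only 11 of the 67 members lay in a coding gene body. The rest of X held 3.39% of the members and 3.09% of all regions.

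By whole chromosomes, the members were spread differently from the other pairs on some chromosomes and alike on others. Relative to all regions, members were 2.38 times as frequent on chromosome 13 (262 members), 1.68 times on chromosome 17 (161), 1.57 times on X (152) and 1.51 times on chromosome 18 (75). On chromosome 17 the IGF2BP1 and IGF2BP2 pair had a ratio of 0.287 and the IGF2BP1 and IGF2BP3 pair 0.801. Members were least frequent on chromosome 16, with a ratio of 0.3 (20 members), and had ratios of 0.463 on chromosome 7, 0.479 on 19, 0.512 on 2 and 0.514 on 11. On chromosome 2 the IGF2BP1 and IGF2BP2 pair reached 1.67 and the IGF2BP1 and IGF2BP3 pair 0.338. On chromosome 11 these pairs had 0.481 and 2.69. Some departures were shared, since on chromosome 18 the pairs had 1.29 and 1.7. The IGF2BP1 and IGF2BP3 pair was also low on chromosomes 16 (0.198) and 19 (0.24), where the IGF2BP1 and IGF2BP2 pair had 1.11 and 0.768. Of the remaining members, 25 lay on unplaced or unlocalized sequences and 4 on Y. The lists give positions only, so whether reads there mapped uniquely was not tested, and open chromatin at these places is not established.

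**Figure D5:**
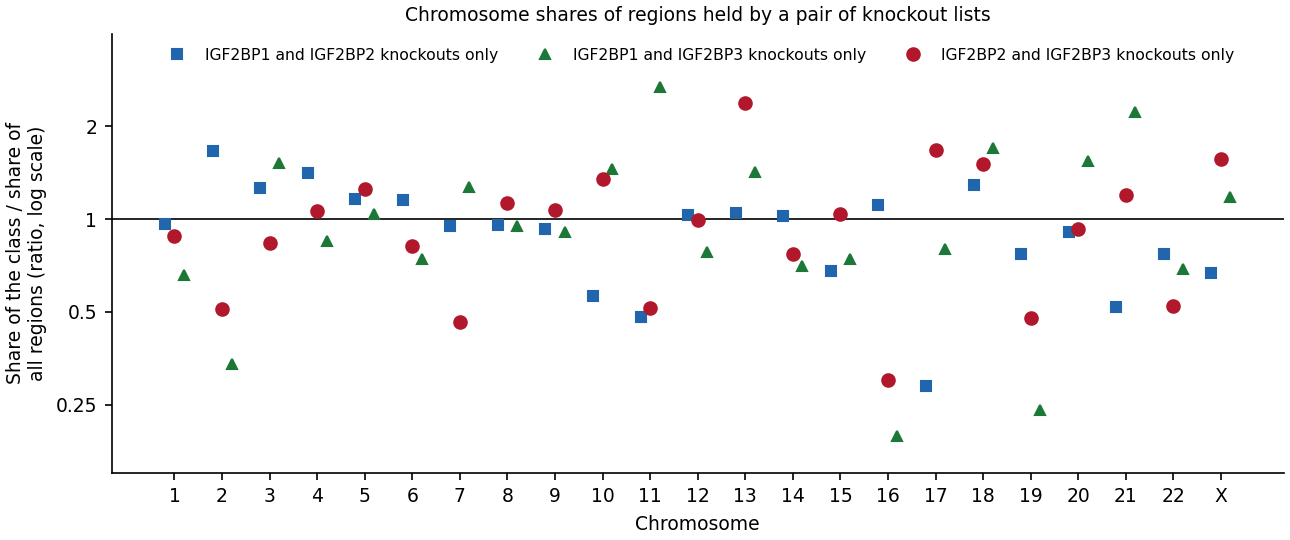
Share of each pair class on a chromosome divided by the share of all regions there (y axis, ratio, log scale), for chromosomes 1 to 22 and X (x axis); the line at 1 marks equal shares. Members (red circles) stand highest on chromosome 13 (2.38) and lowest on chromosome 16 (0.3), and on chromosome 17 the members (1.68) stand above the IGF2BP1 and IGF2BP2 pair (0.287).

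The widest single members, ranked by the narrower of their 2 peaks and at least 1 kb from control and IGF2BP1 knockout peaks, were again mostly distal. The first was chr13:88895353-88897117, with peaks of 1745 bp (IGF2BP2) and 1754 bp (IGF2BP3) that shared 1734 bp. Its nearest coding gene, SLITRK5, which codes for a membrane protein of neurites, was 1216 kb away and its nearest control peak 170 kb away. The second, chr1:186762911-186764420 (1417 and 1490 bp), lay 64.5 kb from PLA2G4A, the cytosolic phospholipase A2 that releases arachidonic acid. The third, chr1:244778170-244779815 (1288 and 1391 bp), lay in LOC107985372.

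Others of the 12 widest lay inside coding genes. chr4:65635253-65636645 (1211 and 1393 bp) lay in EPHA5, an ephrin receptor of axon guidance. chr11:33723258-33724484 (1199 and 1227 bp) lay in CD59, an inhibitor of the complement attack complex, 0.309 kb from a coding start. chr6:158302415-158303598 (1114 and 1184 bp) lay in TULP4. chr17:16745665-16746891 (1166 and 1222 bp) lay in CCDC144A.

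On X lay 3 of the 12. chrX:12137658-12139176 (1228 and 1121 bp) covered an annotated start inside FRMPD4, a scaffold of excitatory synapses, with both other lists empty for 196 kb. chrX:121281701-121283143 (1244 and 1210 bp) and chrX:127128380-127129672 (1098 and 1231 bp) lay 232 and 307 kb from the nearest coding genes, GLUD2 and PRR32. The last 2 of the 12 were chr5:18393621-18394847 (1227 and 1167 bp), 738 kb from H3Y1, and chr6:149093115-149094438 (1140 and 1259 bp), 16.1 kb from UST, which sulfates dermatan and chondroitin chains.

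Few members reached an end of a coding gene, and either end counts, so such a member need not lie at a start. Of 20037 coding genes, 90 had a member within 1 kb of an end, 0.449% of them, and 47 (0.235%) had gene-end peaks in the IGF2BP2 and IGF2BP3 knockout lists only. For 43 of the 47 the peaks formed a member, and for 4 the 2 lists had separate peaks. With 5 kb in place of 1 kb there were 78 such genes. The IGF2BP1 and IGF2BP2 pair had 170 such genes (0.848%) and the IGF2BP1 and IGF2BP3 pair 65 (0.324%). For comparison, 12714 genes (63.5%) had gene-end peaks in all 4 lists. A gene-end peak in the IGF2BP2 knockout list and none in the control list was found for 650 genes (3.24%). For the IGF2BP3 knockout list there were 465 such genes (2.32%).

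SLC6A14 and CACNG6 ranked first among the 47 by the narrower of their 2 peaks. SLC6A14, an amino acid transporter, had peaks of 1032 bp (IGF2BP2) and 929 bp (IGF2BP3) over its start, with the nearest control peak 82.7 kb away. CACNG6, a gamma subunit of voltage-gated calcium channels, had peaks of 879 and 934 bp, with the nearest control peak 9.63 kb away; the same member lay within 1 kb of the end of its neighbour CACNG8. Both promoters are printed above.

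Some genes with a member near an end code for transcription factors. HMX2, a homeobox factor of the inner ear and hypothalamus, had peaks of 687 and 1036 bp over its start. MKX, a homeobox factor of tendon, had 686 and 865 bp, with a control peak 1.73 kb away and the nearest IGF2BP1 knockout peak 241 kb away. NEUROD2, a neuronal basic helix-loop-helix factor, had 665 and 979 bp, with a control peak 0.452 kb away, so it stood close to a site open in the control. ASCL5, of the same class of factors, had 1183 and 673 bp at a gene end, and NKX6-2, a homeobox factor of oligodendrocytes, 1023 and 1446 bp at 0.987 kb from the gene. ASCL5 and NKX6-2 are not among the 47 genes.

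Further genes of the 47 varied in function, and their members need not lie at a start either. CELF3, a brain splicing regulator, had peaks of 1428 and 672 bp. TNMD, a tendon membrane protein, had 1182 and 630 bp. CYP24A1, the enzyme that inactivates vitamin D, had 617 and 1532 bp. Its member held more than 1 IGF2BP2 knockout peak, of which the widest is given. CCDC68, PRSS38, CCDC144A and LOC101929627 complete the 12 widest, with narrower peaks of 614 to 859 bp. Outside the 47, in ANKRD1, a gene of heart muscle and a target of YAP, a member at the start had peaks of 634 and 627 bp.

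In the list of 113 innate immune genes, ISG15 had a member at a gene end and STAT3 had a member in its body. ISG15 codes for a ubiquitin-like protein induced by interferon. Its member, chr1:1013209-1014106, had peaks of 898 bp in the IGF2BP2 and 539 bp in the IGF2BP3 knockout list, the narrower wholly inside the wider. The nearest control peak was 5.21 kb and the nearest IGF2BP1 knockout peak 5.12 kb away. The STAT3 member (543 and 650 bp) lay 25.2 kb from a control peak. The share of the list with a member at a gene end was 0.885%, beside 0.449% of all coding genes, and with any member 1.77%, beside 4.51%.

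The list of 111 neuronal adhesion and synapse genes held 46 members in 26 genes (23.4%, beside 4.51% of all coding genes), and its genes are long, with a median of 445 kb against 24.1 kb. Per megabase of gene it held 0.654 members, beside 0.805 for all coding genes. LRRTM4, a synaptic adhesion protein, was the only gene of this list with a member at a gene end (1044 and 595 bp, 148 kb from a control peak). GPC5 and GPC6, glypicans that carry heparan sulfate at the cell surface, had 6 members each, PCDH9 had 5, and DACH1, a nuclear cofactor placed in this list, had 3. CDH4, a cadherin, had 2.

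Among 117 developmental transcription factors, 0 had a member at a gene end, beside 0.449% of all coding genes, and 7 (5.98%) had one in the body, beside 4.51% with any member. FOXP1, a forkhead factor, and KLF12 had 2 members each. The others, among them PAX2, PBX3, SOX6 and TCF7L2, had 1 each. HMX2, MKX, NEUROD2, ASCL5 and NKX6-2 are not in this list as it was drawn up. Of 32 oncofetal and IGF-axis genes, HMGA2, an architectural chromatin protein, had a member at a gene end (355 and 414 bp, 72.8 kb from a control peak), and INSR, the insulin receptor, and BTRC had 1 each in the body. These single genes are 3.12% of the list with a member at an end and 9.38% with any member, beside 0.449% and 4.51% of all coding genes. Of 21 genes of the m6A RNA methylation machinery, 0 had a member, beside 4.51% of all coding genes, and a list this short says little at that share.

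Coding genes with a member were longer than coding genes in general. Of the 903 coding genes with a member in the body or within 1 kb (4.51% of all), 807 had 1, 69 had 2 and 27 had 3 or more, and their median length was 129 kb against 24.1 kb for all coding genes. GPC5 held 6 members among 67 regions, of which 17 had a control peak, and GPC6 held 6 among 58, of which 12 did. In GPC6 the 6 members lay between 76.3 and 285 kb from a control peak and between 7.51 and 19.1 kb from an IGF2BP1 knockout peak. CHRM3, a muscarinic acetylcholine receptor, held 5 members among 25 regions, in a run from 239786336 to 239883332 of chromosome 1. DAB1, an adaptor of reelin signalling, CCSER1 and PCDH9 held 5 each, IL1RAPL2 and LRMDA 4 each, and ADAMTS17, a secreted metalloprotease, 3.

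TLE4 was the most densely filled of these 10 genes, and also the shortest of them. It codes for a Groucho-family corepressor and, at 155 kb, held 4 members, or 25.8 per megabase, against 9.45 in CHRM3 and 8.1 in ADAMTS17. The 4 lay between 79674065 and 79694250 of chromosome 9. Their peaks were 304 and 345 bp, 824 and 804 bp, 795 and 786 bp, and 407 and 347 bp, each pair giving the IGF2BP2 width first. The third ended at 79693571 and the fourth began at 79693844, so these 2 were close neighbours. The nearest control peaks were 3.29, 1.05, 7.5 and 8.77 kb away, and the nearest IGF2BP1 knockout peaks 3.25, 0.903, 7.36 and 8.62 kb.

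Across the 66 start sites in members, promoter composition differed from that of the promoters open in every list. The median GC content was 59.3% (quartiles 52.4 and 65.0%) and the median CpG ratio, observed over expected, 0.34. Start sites in regions of all 4 lists had 66.7% and 0.85, start sites in no list 48.7% and 0.25, the IGF2BP1 and IGF2BP2 pair 52.0% and 0.36, and the IGF2BP1 and IGF2BP3 pair 64.0% and 0.70. A CpG ratio over 0.6, usual in promoters of widely used genes, was found at 20 of the 66 (30.3%), compared with 87.3% in all 4 lists, 58.2% in the IGF2BP1 and IGF2BP3 pair, 32.1% in the IGF2BP1 and IGF2BP2 pair and 14.1% in no list.

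The AP-1 letters TGANTCA, bound by Fos and Jun factors, were in 12 of the 66 windows (18.2%), on either strand. They were in 3.79% of windows in all 4 lists, 10.9% of windows in no list, 7.72% of all 34943 windows, 18.1% in the IGF2BP1 and IGF2BP2 pair and 9.09% in the IGF2BP1 and IGF2BP3 pair. SLC6A14, SMAD3, ASCL5, ANKRD1 and SPATA12 were the coding genes among the 12, of which SMAD3 and SPATA12 are named here after their values were seen. The GC box was in 47.0% of member windows, compared with 73.2% in all 4 lists and 44.9% of all windows. CAGCTG was in 25.8%, compared with 17.9% of all windows, and the interferon-stimulated response element in 3 (4.55%), compared with 3.57%. The homeobox letters TAATTA, the ETS letters CCGGAAGT and a CTCF core motif were in 0 of 66, compared with 4.85%, 4.11% and 1.77% of all windows. With 66 windows these shares carry wide counting error, and the windows describe promoters, not the distal majority of members.

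The targeted genes and the cell identity were looked at in the same lists. A peak lay at an end of IGF2BP1 and of IGF2BP2 in all 4 lists. IGF2BP3 had one in the control and IGF2BP1 knockout lists and in neither of the other 2. A peak does not show whether a gene was cut, so this is no check of the labels. The body of IGF2BP2 held 1 member, chr3:185688686-185689487, with 802 bp in the IGF2BP2 and 456 bp in the IGF2BP3 knockout list and the nearest control peak 44.5 kb away. Of 10 markers of HEK293T cells, 7 had a peak at a gene end in the control, IGF2BP1 and IGF2BP2 knockout lists and 8 in the IGF2BP3 knockout list; PAX2 and PAX8 had none in any list. Of 8 blood cell markers, 1, 2, 1 and 1 had such a peak in the control, IGF2BP1, IGF2BP2 and IGF2BP3 knockout lists, SPI1 in each.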

How the data were processed

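The authors deposited 4 peak lists, 1 per group, whose columns are chromosome, start and end, with no score and no value per library. The submitters' processing notes name fastp 0.24.1, BWA 0.7.17, MACS2 3.0.0, bedtools and the build GRCh38. The role of each tool, the peak threshold and the way libraries were combined are not given in the sources used here.

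Peaks of the 4 lists were merged where they shared at least 1 bp, and regions were classed by the lists that held them. Positions are counted from 1. Gene positions, start sites and sequences came from RefSeq tables of GRCh38.p14 (59679 placed genes, 20037 of them coding, and 35116 start sites). Start sites on chromosome 8, which held 107 members, were not analysed here, so counts and shares of start sites and promoter windows leave it out. The start sites used also lacked those of some coding genes on other chromosomes. The member in LRRTM4, a gene of 775 kb, lay 1037 kb from the nearest coding start used. The member in CDH6, a gene of 135 kb, lay 240 kb from one. Counts at starts can therefore be too low and distances to starts too long. A gene end is within 1 kb of either end of a gene. No reference genome was used, so the planned sequence analysis of whole members was limited to promoter windows. Calculations used Python 3.11.15 with numpy 2.4.6, pandas 2.3.3 and scipy 1.17.1, and were tested on simulated peak lists. Shares carry 95% Wilson intervals.

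The members, the chromosome 13 stretch and the gene lists were chosen with earlier results of these data known. Members were named as the 12 widest at least 1 kb from control and IGF2BP1 knockout peaks, the 12 such widest at coding gene ends, the 5 densest windows, the 10 genes with most members, up to 12 genes with gene-end peaks in these lists only, listed genes with a member (up to 6 per list in the body) and the targeted genes. Alternatives covered the overlap rule, merging, list length, peak width, distance to other peaks, chromosomes, gene-end distance and the chromosome 13 stretch.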

Additional observations from a re-analysis of the deposited data

How the results depend on the processing

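Of 39 alternative values, 9 moved: a count by over 1.5 times, or a percentage or median to a value outside its 95% interval. The other 30 did not pass these bounds; among them the 47 genes became 36 with the widest peaks and 55 with trimmed peaks. With each list shortened to its 39194 widest peaks, members fell to 1449, of which 1059 were also members of the full lists (42.2% of the 2507). In the shortened lists 883 of the original members were in the IGF2BP3 knockout alone, 148 in the IGF2BP2 knockout alone and 417 in no list. The median narrower peak was then 582 bp, against 459 bp, and 57.1% of members were in a gene body, against 55.2%. With peaks trimmed to 200 bp, 15.9% of members were within 1 kb of a gene end, against 10.3%, 57.8% were in a gene body and 7.57% in the chromosome 13 stretch, against 8.86%. With gene ends taken as within 5 kb, 25.6% of members and 78 genes, against 47, were counted. Without the chromosome 13 stretch, 57.9% were in a gene body. The causes were not tested. No paired analysis was possible because each group has 1 list with no values per library, and for the same reason no library could be left out and no batch compared. Read depth limits which peaks each list holds, and it is unknown.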
